A study of Mus musculus with 8 samples.

Results

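The data describe 10 genes of the Hippo pathway and its nuclear output in 3134 cells, a mouse mammary line, measured on 8 expression arrays. The genes were chosen by symbol: the coactivator genes Yap1 and Wwtr1, the DNA-binding partner genes Tead1 and Tead4, the kinase genes Lats1 and Lats2, the scaffold genes Amotl1, Amotl2 and Ajuba, and the target gene Ankrd1. All 10 were matched to a probe set carrying their symbol alone, out of 19938 genes measured. Tead1 had 2 such probe sets, and the brighter one over all 8 arrays stood for the gene.

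The study set hormone against AP-1 binding. AP-1 is a transcription factor built from Fos and Jun proteins, and A-fos is a dominant negative that pairs with Jun and keeps it off DNA. The 3134 line comes from C127 cells, themselves from a mammary tumour of the RIII mouse, and every sample here carried stably integrated A-fos and the tetracycline regulator tTa in a Tet-Off arrangement, in which tetracycline keeps the transgene silent. There were 4 groups with 2 arrays each: 0 h without hormone and 4 h of 100 nM dexamethasone, a synthetic glucocorticoid, in an arm titled as having no tetracycline and in an arm titled as having it. The treatment protocol gives the reverse tetracycline state for every sample, so each arm takes its name below from the sample titles, no-titled or plus-titled, and no sign of a difference says which of them expressed A-fos. That protocol names 48 h without tetracycline, and a dose of 1 ug per ml where it was given. Cells were in stripped serum for 48 h before hormone. Values are log2 expression. A gene was called when its limma p-value, adjusted over all genes by the Benjamini-Hochberg method, was under 0.05.

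The Hippo pathway restrains growth by keeping a pair of related coactivators out of the nucleus. The kinases LATS1 and LATS2 phosphorylate YAP and its relative TAZ, the product of Wwtr1, which are then held in the cytoplasm or degraded. Unphosphorylated YAP and TAZ enter the nucleus and bind TEAD proteins, which contact DNA. They switch on genes for matrix, cytoskeletal and growth functions and also raise inhibitors of the pathway. At many enhancers TEAD and AP-1 sites lie close together. The arrays read RNA only, so neither phosphorylation nor the location of YAP and TAZ was measured.

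Array medians lay between 5.59 and 5.69 over the genes, and replicates correlated at 0.9932 to 0.9956 across genes. The hormone registered in both arms. Fkbp5, the receptor's co-chaperone and a standard induced gene, read 8.45 and 8.46 before and 11.50 and 11.51 after hormone in the no-titled arm, and 8.33 and 8.06 before and 11.47 and 11.56 after in the plus-titled arm. Of 8 luminal epithelial markers, 2 had a mean above 5.66, the median gene's level, and Epcam lay between 4.06 and 4.58 and Krt18 between 4.84 and 5.40. All 7 mesenchymal markers lay above that level, among them Vim at 12.61 to 12.99. The 2 luminal markers above it were Krt8 (median 5.91) and Cldn3 (median 6.36), and 2 of 5 basal epithelial markers were above it too. Most of the listed epithelial markers, but not all, thus lay below the median gene's level. Of 5 leukocyte, 5 adipocyte and 4 corticotroph markers, 0 lay above it, and 1 of 4 endothelial markers did.

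In short, Tead4 rose and Ankrd1 fell with hormone, and Tead1 and Lats2 were higher in the plus-titled arm with and without hormone. Yap1, Amotl1, Lats1, Amotl2 and Ajuba passed the test in none of the comparisons within an arm or within a time. Of the 10 genes, 2 were called for the hormone response of the no-titled arm, where 1.43% of all genes were: 1 rose, against 1.03% of all genes, and 1 fell, against 0.401%. In the plus-titled response 1 of the 10 was called, against 1.1% of all genes, and it rose, against 0.823%. For the arm difference at 0 h 3 were called, against 9.38% of all genes: 2 were higher in the plus-titled arm, against 6.2%, and 1 lower, against 3.18%. At 4 h 3 were called, against 9.61%, all of them higher, against 5.29%, and 0 lower, against 4.32%. That count fell without any 1 of the treated arrays, as did the count over all genes. With 10 genes, a count of 1 to 3 describes single genes and not the group. The median differences of the 10 were -0.02 and -0.14 in the responses, against 0.01 and -0.01 over all genes, and 0.19 and 0.08 between the arms at 0 h and 4 h, against -0.02 and -0.01. For the difference of the hormone responses 0 of 10 were called by limma, against 0.00502% of all genes. An unadjusted limma p under 0.05 was found for 1 of the 10, and for 1018 of all 19938 genes. The variance model with trend and robust estimation also called 0.

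**Figure D1:**
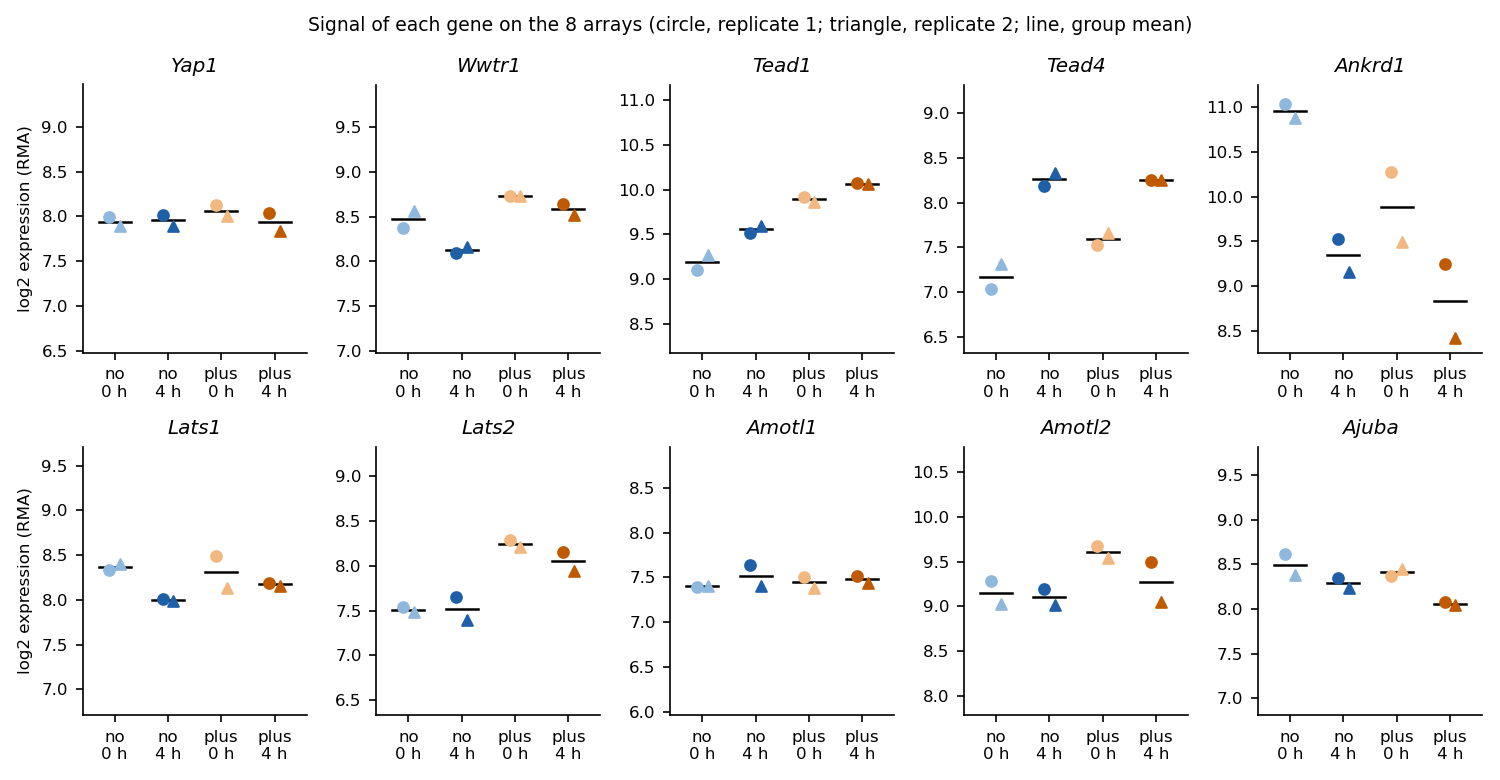
Log2 expression of the 10 genes on all 8 arrays, by arm (no-titled, plus-titled) and time of dexamethasone. Circles are replicate 1, triangles replicate 2 and lines group means, and every panel spans 3 log2 units around the gene's own mean. Tead4 sits near 8.25 at 4 h in both arms, Tead1 and Lats2 are higher in the plus-titled arm, and Ankrd1 steps down with hormone in each arm.

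Yap1, the principal coactivator of the pathway, passed in none of the comparisons. Its probe set read 8.00 and 7.89 in the untreated no-titled group, 8.02 and 7.89 after hormone, 8.13 and 8.01 in the untreated plus-titled group and 8.04 and 7.83 after hormone. The 8 arrays overlapped across times in each arm and across arms at 4 h, while at 0 h both plus-titled arrays were above both no-titled ones. The response to hormone was 0.02 in the no-titled arm (95% interval -0.25 to 0.28) and -0.13 in the plus-titled arm (-0.39 to 0.13). The arm difference was 0.12 at 0 h (-0.14 to 0.39) and -0.02 at 4 h (-0.28 to 0.24).

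Wwtr1, which encodes the coactivator TAZ, was higher in the plus-titled arm after hormone. It read 8.38 and 8.57 in the untreated no-titled group and 8.10 and 8.16 after hormone. In the plus-titled arm it read 8.73 and 8.73 before and 8.65 and 8.52 after. Its levels thus ran from the treated no-titled arrays at the bottom to the untreated plus-titled arrays at the top, and the untreated no-titled and treated plus-titled arrays overlapped in between. At 4 h the arms differed by 0.46 ± 0.11 (SE; 1.37-fold, adjusted p = 0.0292) without overlap. This call was lost without any 1 of the 4 treated arrays (log2 0.39 to 0.52, adjusted p = 0.0845 to 0.166). The arm difference at 0 h was 0.26 (adjusted p = 0.205), and the responses of -0.34 (adjusted p = 0.282) and -0.14 (adjusted p = 0.75) did not pass.

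Of the DNA-binding partners, Tead4 was the member that responded to hormone in each arm. Untreated no-titled arrays read 7.04 and 7.31 and treated ones 8.19 and 8.33. In the plus-titled arm the gene read 7.53 and 7.66 before and 8.26 and 8.25 after hormone. All 4 treated arrays were above all 4 untreated arrays, and the treated arms overlapped. Tead4 rose by 1.09 ± 0.12 (SE; 2.13-fold, adjusted p = 0.000911) in the no-titled arm, and this call was kept in all 8 fits without 1 array (0.95 to 1.22, adjusted p up to 0.0165). It rose by 0.66 ± 0.12 (1.58-fold, adjusted p = 0.0314) in the plus-titled arm. That second call was lost without any 1 of the 4 plus-titled arrays (0.59 to 0.72, adjusted p = 0.0944 to 0.204) and with the plus-titled arrays alone (adjusted p = 0.0547).

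The responses of Tead4 differed by -0.43 ± 0.18 (plus-titled minus no-titled, 95% interval -0.82 to -0.04). Its unadjusted p was 0.0323 and its adjusted p 0.953, so this difference did not pass. Before hormone the plus-titled arrays were higher by 0.42 (adjusted p = 0.0586) without overlap, and that difference passed in 4 of the 7 other settings that kept all 8 arrays or the compared ones, among them trend and robust variance (adjusted p = 0.0212), removal of dim genes (adjusted p = 0.0182) and median centring (adjusted p = 0.0394). After hormone the arms differed by -0.01 (95% interval -0.28 to 0.27). The levels therefore ordered as untreated no-titled, untreated plus-titled, and then the treated groups of either arm, which did not differ beyond their spread.

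Tead1, another TEAD transcription factor gene, differed between the arms rather than with hormone by these calls. It read 9.11 and 9.27 in the untreated and 9.52 and 9.60 in the treated no-titled group, and 9.92 and 9.87, then 10.08 and 10.06, in the plus-titled groups. No group overlapped another, in the order untreated and treated no-titled, then untreated and treated plus-titled. The plus-titled arm was higher by 0.71 ± 0.11 at 0 h (SE; 1.63-fold, adjusted p = 0.00313), a call kept in all 8 fits without 1 array (0.63 to 0.79, adjusted p up to 0.0429). At 4 h it was higher by 0.51 ± 0.11 (1.43-fold, adjusted p = 0.0142), a call lost without any 1 of the 4 treated arrays (0.47 to 0.55, adjusted p = 0.0586 to 0.113). The dimmer Tead1 probe set gave arm differences of 0.58 and 0.41 at those times and responses of 0.28 and 0.11. The responses of the probe set used were 0.37 (adjusted p = 0.198; 0.0443 with trend and robust variance) and 0.17 (adjusted p = 0.666) and did not pass.

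**Figure D2:**
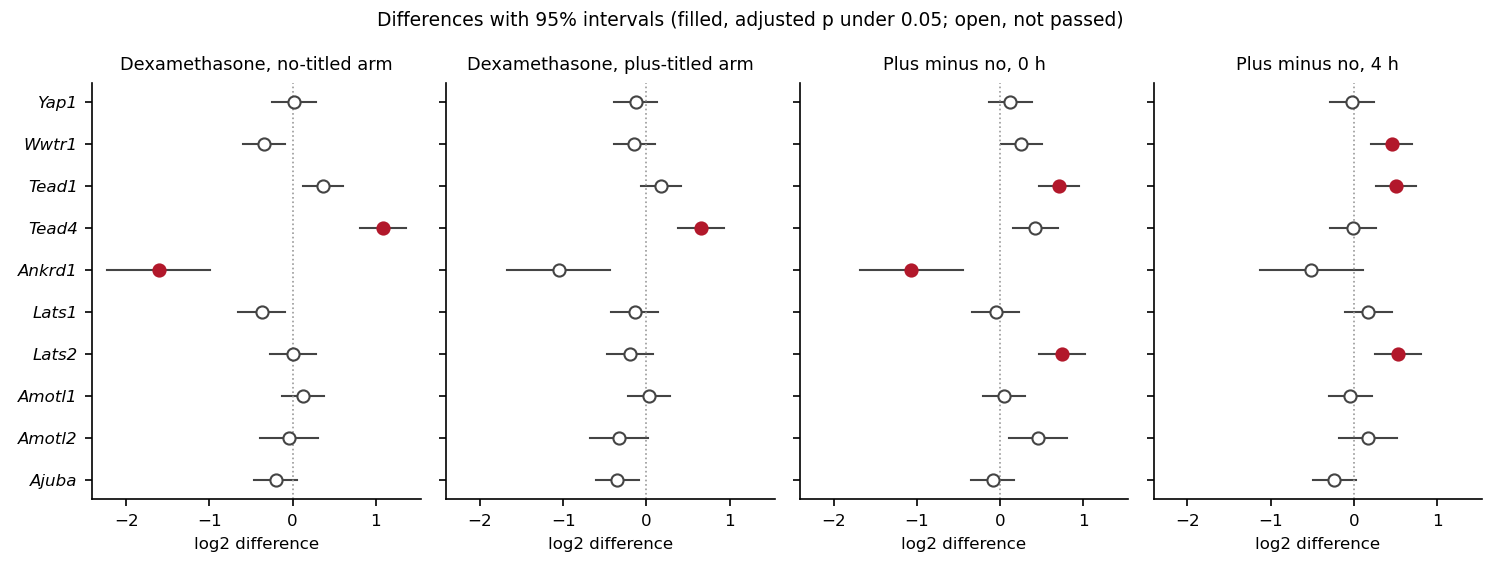
Log2 differences of the 10 genes in 4 comparisons, with 95% intervals from the limma model over 8 arrays. Filled points passed at an adjusted p under 0.05 and open points did not. Tead4 and Ankrd1 lie farthest from 0 in the hormone responses, at 1.09 and -1.61 in the no-titled arm, and Tead1 and Lats2 are filled in both arm comparisons.

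Lats2 and Lats1 encode the kinases that phosphorylate YAP and TAZ, and Lats2 is itself a YAP-TEAD target. Lats2 read 7.54 and 7.48 in the untreated and 7.65 and 7.39 in the treated no-titled group, against 8.29 and 8.21 and then 8.15 and 7.95 in the plus-titled groups. All 4 plus-titled arrays were above all 4 no-titled arrays. The arm difference was 0.74 ± 0.13 at 0 h (SE; 1.67-fold, adjusted p = 0.0051), kept in all 8 fits without 1 array (0.70 to 0.78, adjusted p up to 0.0456). At 4 h it was 0.53 ± 0.13 (1.45-fold, adjusted p = 0.023). The latter call was lost without either treated plus-titled array (0.43 and 0.63, adjusted p = 0.149 and 0.0521), without replicate 2 of the treated no-titled group (0.40, adjusted p = 0.174) and with the treated arrays alone (adjusted p = 0.05002). The hormone responses of Lats2 were 0.01 (95% interval -0.27 to 0.28) and -0.20 (-0.48 to 0.08).

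Lats1 did not show the arm difference of its paralog by test. It read 8.33 and 8.40, then 8.01 and 7.99, in the no-titled groups at 0 h and 4 h. The plus-titled arrays read 8.49 and 8.14, then 8.19 and 8.15. The treated no-titled pair lay below the other 6 arrays, with a response of -0.37 ± 0.13 (adjusted p = 0.321) that did not pass. Its arm differences were -0.05 at 0 h (95% interval -0.34 to 0.23) and 0.18 at 4 h (-0.11 to 0.46). Whether the arm differences of Lats1 and Lats2 are unequal was not tested.

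Amotl1 and Amotl2 encode angiomotin-like scaffolds that bind YAP at junctions and actin, and Amotl2 is also a YAP-TEAD target. Amotl1 spanned 7.39 to 7.63 over the 8 arrays, and its differences in the 4 comparisons lay between -0.04 and 0.12, none of which passed. Amotl2 read 9.28 and 9.02, then 9.20 and 9.01, in the no-titled groups and 9.67 and 9.54, then 9.50 and 9.05, in the plus-titled groups. Its untreated plus-titled arrays were the highest of the 8. The arm difference at 0 h was 0.45 ± 0.16 (adjusted p = 0.107) and did not pass, but it did in 3 of the same 7 settings, among them trend and robust variance (adjusted p = 0.0407) and removal of dim genes (adjusted p = 0.0423). The response in the plus-titled arm was -0.33 (adjusted p = 0.532).

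Ajuba encodes a LIM domain protein that inhibits LATS kinases. It read 8.61 and 8.38, then 8.35 and 8.24, in the no-titled groups and 8.37 and 8.45, then 8.08 and 8.04, in the plus-titled groups. The treated pair was below the untreated pair in each arm. The responses of -0.20 (adjusted p = 0.707) and -0.35 (adjusted p = 0.288) did not pass, nor did the arm differences of -0.09 and -0.23 (adjusted p = 0.725 and 0.278).

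Ankrd1, a standard YAP-TEAD target that encodes a cardiac ankyrin repeat protein acting in muscle and as a nuclear cofactor, had the largest response in each arm and the largest arm difference at 0 h among the 10 genes. It read 11.03 and 10.88 in the untreated no-titled group and 9.53 and 9.16 after hormone. In the plus-titled arm it read 10.28 and 9.49 before and 9.24 and 8.42 after hormone. Treated arrays were below untreated ones in each arm, and the pairs of the plus-titled arm lay farther apart than those of the no-titled arm. Ankrd1 fell by 1.61 ± 0.28 (SE; adjusted p = 0.0159) in the no-titled arm, a level 3.05-fold lower. That call was lost without either untreated array or without replicate 2 of the treated group of that arm (-1.69 to -1.42, adjusted p = 0.079 to 0.149).

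In the plus-titled arm the response of Ankrd1 was -1.05 ± 0.28 (95% interval -1.67 to -0.44, adjusted p = 0.148), which did not pass, and the responses differed by 0.55 (-0.32 to 1.43, adjusted p = 0.997). At 0 h the plus-titled arm was lower by -1.07 ± 0.28 (adjusted p = 0.0384), a 2.1-fold lower level. This call was lost without either untreated no-titled array (-0.99 and -1.15, adjusted p = 0.179 and 0.117) and without replicate 2 of the untreated plus-titled group (-0.67, adjusted p = 0.206). At 4 h the difference was -0.51 (adjusted p = 0.325), and the treated groups of the arms overlapped, as did the treated no-titled and untreated plus-titled groups.

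The mean of both arms' hormone responses and the mean of both times' arm differences, added after the values were seen, use all 8 arrays for each gene. For the mean response 2 of the 10 genes were called, against 2.96% of all genes: 1 rose, against 1.73%, and 1 fell, against 1.23%. Tead4 rose by 0.87 ± 0.09 (SE; 1.83-fold, adjusted p = 0.000215) and Ankrd1 fell by 1.33 ± 0.20 (adjusted p = 0.00365). Both calls were kept in all 8 fits without 1 array, with Tead4 at 0.80 to 0.94 and Ankrd1 at -1.54 to -1.13. For the mean arm difference 4 of the 10 were called, against 18.8% of all genes: 3 were higher, against 11%, and 1 lower, against 7.74%. Lats2 was higher in the plus-titled arm by 0.64 ± 0.09 (adjusted p = 0.000639) and Tead1 by 0.61 ± 0.08 (adjusted p = 0.000357), each in all 8 such fits.

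Wwtr1 was higher by 0.36 ± 0.08 (adjusted p = 0.00989) in the mean arm difference, lost without replicate 1 of the untreated no-titled group (0.31, adjusted p = 0.0525). Ankrd1 was lower by -0.79 ± 0.20 (adjusted p = 0.0174). Its call was lost without replicate 1 of either no-titled group (-0.75 and -0.70, adjusted p = 0.0548 and 0.0637) and without replicate 2 of either plus-titled group (-0.59 and -0.58, adjusted p = 0.0671 and 0.0575). The target gene Ankrd1 and the target gene Lats2 thus lay on opposite sides of 0 between the arms.

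**Figure D3:**
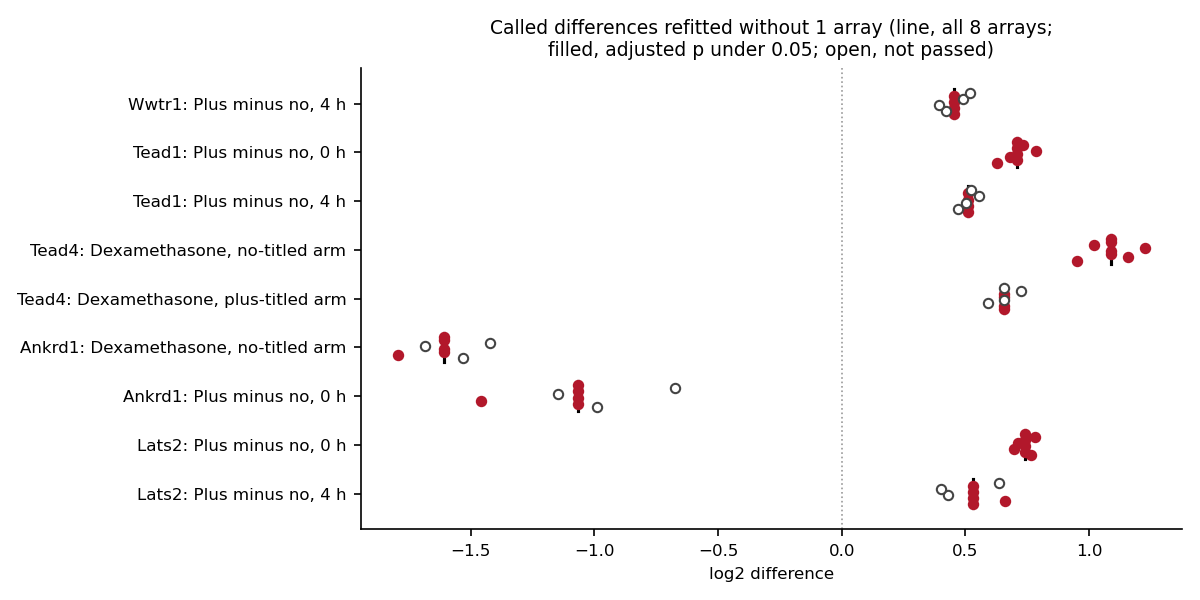
The 9 called differences of single genes, each refitted 8 times without 1 array. Vertical lines mark the log2 difference with all 8 arrays, filled points fits with an adjusted p under 0.05 and open points fits that did not pass. Filled throughout are Tead4 in the no-titled response and Tead1 and Lats2 between the arms at 0 h, and no point crosses 0.

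Some marker levels differed between the arms, and a few with hormone, beside these genes. A summed signal mostly follows its brightest markers. In the mesenchymal list these were Vim (12.61 to 12.99) and Fn1 (10.93 to 11.45), with Pdgfrb next at up to 9.64. The summed level of the 7 mesenchymal markers (log2 of the summed signal) was 13.57 to 13.59 in the untreated no-titled and 13.30 to 13.33 in the untreated plus-titled group, and 13.48 to 13.54 against 13.20 to 13.29 after hormone. That of the 8 luminal markers was 8.42 to 8.44 against 8.16 to 8.27 at 0 h, and 8.45 to 8.48 against 8.31 to 8.31 at 4 h. The 5 adipocyte markers summed to 7.08 to 7.29 against 6.95 to 7.05 at 0 h and to 7.42 to 7.55 against 6.97 to 7.10 at 4 h. Of 5 basal markers 1 was called higher and 1 lower in the plus-titled arm at each time. Of the mesenchymal markers 1 was called higher at 0 h, of the adipocyte markers 1 was called lower at 4 h, and of the luminal markers 0 were called in any comparison. Markers were also called with hormone, beside Tead4 and Ankrd1: 1 adipocyte marker rose in the no-titled arm and 1 mesenchymal marker fell in the plus-titled arm. The 5 leukocyte markers summed to 6.59 to 6.85 over all groups. Of the adipocyte and leukocyte markers 0 lay above the median gene's level, so these sums do not show that such cells were present. The part of the marker shifts in the results was not tested, and in such samples fewer cells of a type and less RNA per cell cannot be told apart.

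Promoter sequence was examined because Ankrd1, Lats2 and Amotl2 are known TEAD targets and because the hormone receptor and AP-1 are the factors the design varied. The RefSeq windows (GRCm38.p6, 250 bases before to 50 after an annotated start) matched 8 of the 10 genes with 10 windows. Tead1 and Tead4 had no entry. The TEAD core GGAATG, searched on both strands, occurred in a window of 6 of these 8 genes, namely Yap1, Wwtr1, Lats2, Ankrd1, Amotl2 and Ajuba. Among the 27025 genes with windows 16.6% held it, and of 32851 windows 14.7%. The AP-1 motif TGANTCA occurred in the windows of 0 of the 8 genes, against 8.97% of all genes, and the palindromic glucocorticoid response element in those of 0, against 0.537%. Both of these read the same on either strand. Matches describe letters in these windows only, and no binding was measured.

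The matches are shown with 12 bases on either side, read 5′ to 3′ along the gene, with the core in capitals, so that their flanks can be compared. CATTCC is the same core on the opposite strand. Coordinates are GRCm38.p6, and positions count from the annotated start.
Ankrd1, minus strand, chr19:36120037-36120066, core at -210 to -205: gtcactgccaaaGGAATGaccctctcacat
Ankrd1, minus strand, chr19:36119950-36119979, core at -123 to -118: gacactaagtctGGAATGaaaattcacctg
Wwtr1, minus strand, chr3:57576029-57576058, core at -136 to -131: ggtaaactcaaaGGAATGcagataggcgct
Yap1, minus strand, chr9:8004720-8004749, core at -141 to -136: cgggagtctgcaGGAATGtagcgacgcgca
Lats2, minus strand, chr14:57746102-57746131, core at 5 to 10: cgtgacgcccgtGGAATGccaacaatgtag
Amotl2, plus strand, chr9:102717727-102717756, core at -65 to -60: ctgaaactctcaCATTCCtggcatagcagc
Ajuba, minus strand, chr14:54577830-54577859, core at -186 to -181: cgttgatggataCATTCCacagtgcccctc
Ajuba, minus strand, chr14:54577808-54577837, core at -164 to -159: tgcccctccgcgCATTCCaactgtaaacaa
For Lats2 the match lay in the window of the upstream start, and its other window had 0. Both starts of Wwtr1 share the site shown, at -170 to -165 from the other start. Lats1 and Amotl1 had 0 matches in their windows.

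Ankrd1 and Ajuba held 2 matches each. The 250 bases before the start of Ankrd1, the gene with the largest response, carry both of its cores (chr19:36119845-36120094, minus strand).
Ankrd1: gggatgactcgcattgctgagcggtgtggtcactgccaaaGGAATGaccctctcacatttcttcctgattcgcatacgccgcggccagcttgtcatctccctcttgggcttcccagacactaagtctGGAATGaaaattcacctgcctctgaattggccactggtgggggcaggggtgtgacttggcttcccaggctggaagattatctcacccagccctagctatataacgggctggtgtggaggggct
Ankrd1 fell with hormone and was lower in the plus-titled arm, while Ajuba, with as many matches, passed in neither comparison. Wwtr1, higher in the plus-titled arm at 4 h, is shown for contrast with its single match (chr3:57575911-57576160, minus strand).
Wwtr1: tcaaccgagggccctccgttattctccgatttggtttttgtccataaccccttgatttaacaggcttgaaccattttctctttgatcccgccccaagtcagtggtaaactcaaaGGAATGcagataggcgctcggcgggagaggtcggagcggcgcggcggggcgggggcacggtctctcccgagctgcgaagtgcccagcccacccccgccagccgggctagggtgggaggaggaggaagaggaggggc
Genes with a match therefore lay above, below and near 0 in the arm difference at 0 h, from -1.07 for Ankrd1 to 0.74 for Lats2.

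**Figure D4:**
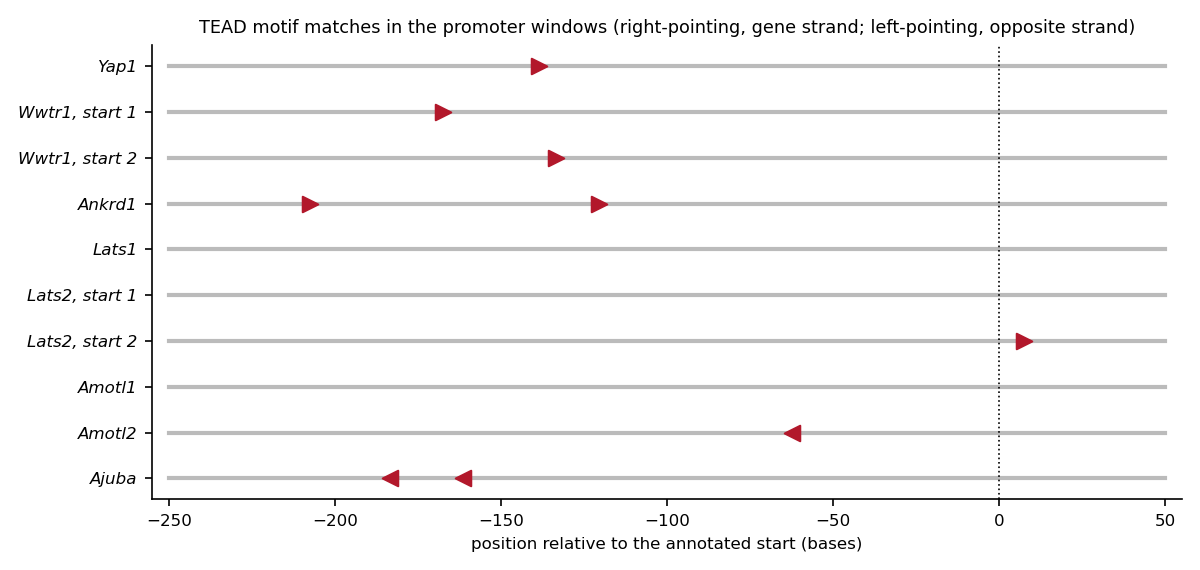
Positions of the TEAD core in the 10 promoter windows of 8 genes, in bases from the annotated start. Right-pointing marks lie on the gene's strand and left-pointing marks on the opposite strand. Ankrd1 and Ajuba have 2 matches each, and the match of Lats2 lies just after its upstream start.

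Beyond these 10 genes, 31 of 32 other Hippo pathway genes were measured: kinases and adaptors, polarity and junction proteins, and the remaining TEAD and VGLL genes. In the no-titled response 2 rose and 0 fell, against 1.03% and 0.401% of all genes (median 0.00, against 0.01 over all genes). They were Tead3, a TEAD paralog, at 0.57 (adjusted p = 0.0248) and Limd1, a relative of Ajuba, at 0.56 (adjusted p = 0.045). Both calls were lost without any 1 of that arm's 4 arrays (adjusted p = 0.129 to 0.377) and with that arm's arrays alone (adjusted p = 0.0524 and 0.0759). That of Limd1 was also lost without either treated plus-titled array (adjusted p = 0.0725). In the plus-titled response limma called 0 of 31, against 1.1% of all genes. An unadjusted p under 0.05 was found for 4 of them, and for 1990 of all 19938 genes. Tead3 was at 0.40 (adjusted p = 0.15) and Map4k4, a kinase that can act on LATS, at 0.40 (adjusted p = 0.209).

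Between the arms, the called Hippo genes were higher in the plus-titled arm at both times. At 0 h 4 of 31 were higher and 0 lower, against 6.2% and 3.18% of all genes (median 0.16, against -0.02 over all genes). At that share, 0 lower of 31 does not set these genes apart. Tead3 read 6.40 and 6.32 in the no-titled and 7.02 and 7.03 in the plus-titled group (0.67 ± 0.11, adjusted p = 0.00397). Nf2, which encodes merlin, an activator of LATS, read 8.63 and 8.62 against 9.29 and 9.22 (0.63 ± 0.10, adjusted p = 0.00408). Both were called in all 8 fits without 1 array. Vgll4, whose product competes with YAP for TEAD, was higher by 0.52 (adjusted p = 0.0147), and the LATS-related kinase gene Stk38 by 0.48 (adjusted p = 0.0303). Vgll4 was lost without either untreated no-titled array or replicate 2 of the untreated plus-titled group (adjusted p = 0.0584 to 0.129). Stk38 was lost without any 1 of the 4 untreated arrays (adjusted p = 0.0525 to 0.226). The list's count fell without either untreated no-titled array or replicate 2 of the untreated plus-titled group, as did the count over all genes.

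At 4 h 5 of the 31 were higher in the plus-titled arm and 0 lower, against 5.29% and 4.32% of all genes (median 0.11, against -0.01). Here too, 0 lower of 31 does not set these genes apart. Mpp5, the polarity gene also called Pals1, was higher by 0.60 (adjusted p = 0.00728), Nf2 by 0.54 (adjusted p = 0.00801), the cadherin gene Fat1 by 0.52 (adjusted p = 0.0152), Tead3 by 0.50 (adjusted p = 0.0154) and Vgll4 by 0.42 (adjusted p = 0.0379). Each of the 5 was lost in at least 3 of the fits without 1 array. The list's count fell without any 1 of the treated arrays, as did the count over all genes. Vgll4 was also lost without either untreated no-titled array.

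The 19 other YAP-TEAD target genes did not share a direction. In the no-titled response 2 rose and 1 fell, against 1.03% and 0.401% of all genes (median 0.01, against 0.01 over all genes). F3, which encodes tissue factor, rose by 1.09 ± 0.13 (adjusted p = 0.00146) and the matricellular gene Ccn2 by 0.65 (adjusted p = 0.0121), while Gadd45a, a growth arrest gene, fell by 0.83 (adjusted p = 0.0159). F3 was called in all 8 fits without 1 array. Ccn2 was lost without either treated no-titled array or replicate 1 of the untreated ones (adjusted p = 0.0998 to 0.18), and Gadd45a without any 1 of that arm's 4 arrays (adjusted p = 0.0691 to 0.164). The count of targets fell without replicate 1 of the untreated no-titled group or either treated no-titled array, as did the count over all genes. In the plus-titled response 1 of the 19 was called, against 1.1% of all genes, and it rose, against 0.823%. This was Ccn2, which rose by 1.28 ± 0.11 (adjusted p = 0.000164), and the other 18 did not pass.

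Ccn2, with Ankrd1 a standard readout of YAP activity, lay on the other side of 0 in all 4 comparisons. Its arrays read 6.51 and 6.70, then 7.26 and 7.24, in the no-titled arm and 7.13 and 7.10, then 8.38 and 8.41, in the plus-titled arm. The treated plus-titled arrays were the highest and the untreated no-titled arrays the lowest, and the group means of Ankrd1 had these ends exchanged. The responses of Ccn2 differed by 0.63 (adjusted p = 0.587), which did not pass.

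At 0 h 4 of the 19 targets were higher in the plus-titled arm and 2 lower, against 6.2% and 3.18% of all genes (median 0.09, against -0.02). Nt5e, an ectonucleotidase gene, was higher by 1.55 ± 0.13 (adjusted p = 0.00014), F3 by 0.83 (adjusted p = 0.00375), Ccn2 by 0.51 (adjusted p = 0.0152) and Ptpn14, a phosphatase that binds YAP and was named after its value was seen, by 0.43 (adjusted p = 0.038). Gadd45a was lower by -1.23 ± 0.14 (adjusted p = 0.000861) and the membrane repair gene Myof by -0.56 (adjusted p = 0.0123). Nt5e, F3 and Gadd45a were called in all 8 fits without 1 array. Ccn2 was lost without replicate 1 of either untreated group (0.42 and 0.49, adjusted p = 0.147 and 0.055), Myof without either untreated no-titled array or replicate 2 of the untreated plus-titled group (adjusted p = 0.0591 to 0.104) and Ptpn14 in 6 of the 8 fits (adjusted p = 0.0564 to 0.245). The count of targets was lowest without replicate 1 of the untreated no-titled group, where the count over all genes fell too.

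At 4 h 4 of the 19 targets were higher and 2 lower, against 5.29% and 4.32% of all genes (median 0.01, against -0.01). Nt5e was higher by 1.71 (adjusted p = 8.79e-05) and Ccn2 by 1.14 (adjusted p = 0.000284), each in all 8 fits. Ccn1, the relative of Ccn2, was higher by 0.68 (adjusted p = 0.0254) and Crim1, a membrane protein gene likewise named afterwards, by 0.46 (adjusted p = 0.0419). Gadd45a was lower by -0.66 (adjusted p = 0.0165) and Myof by -0.50 (adjusted p = 0.02). Those 4 calls were each lost in at least 3 of the 8 fits, among them the fits without either treated no-titled array and the fit leaving out replicate 1 of the treated plus-titled arrays. The count of targets fell in each of those 3 fits, as did the count over all genes.

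**Figure D5:**
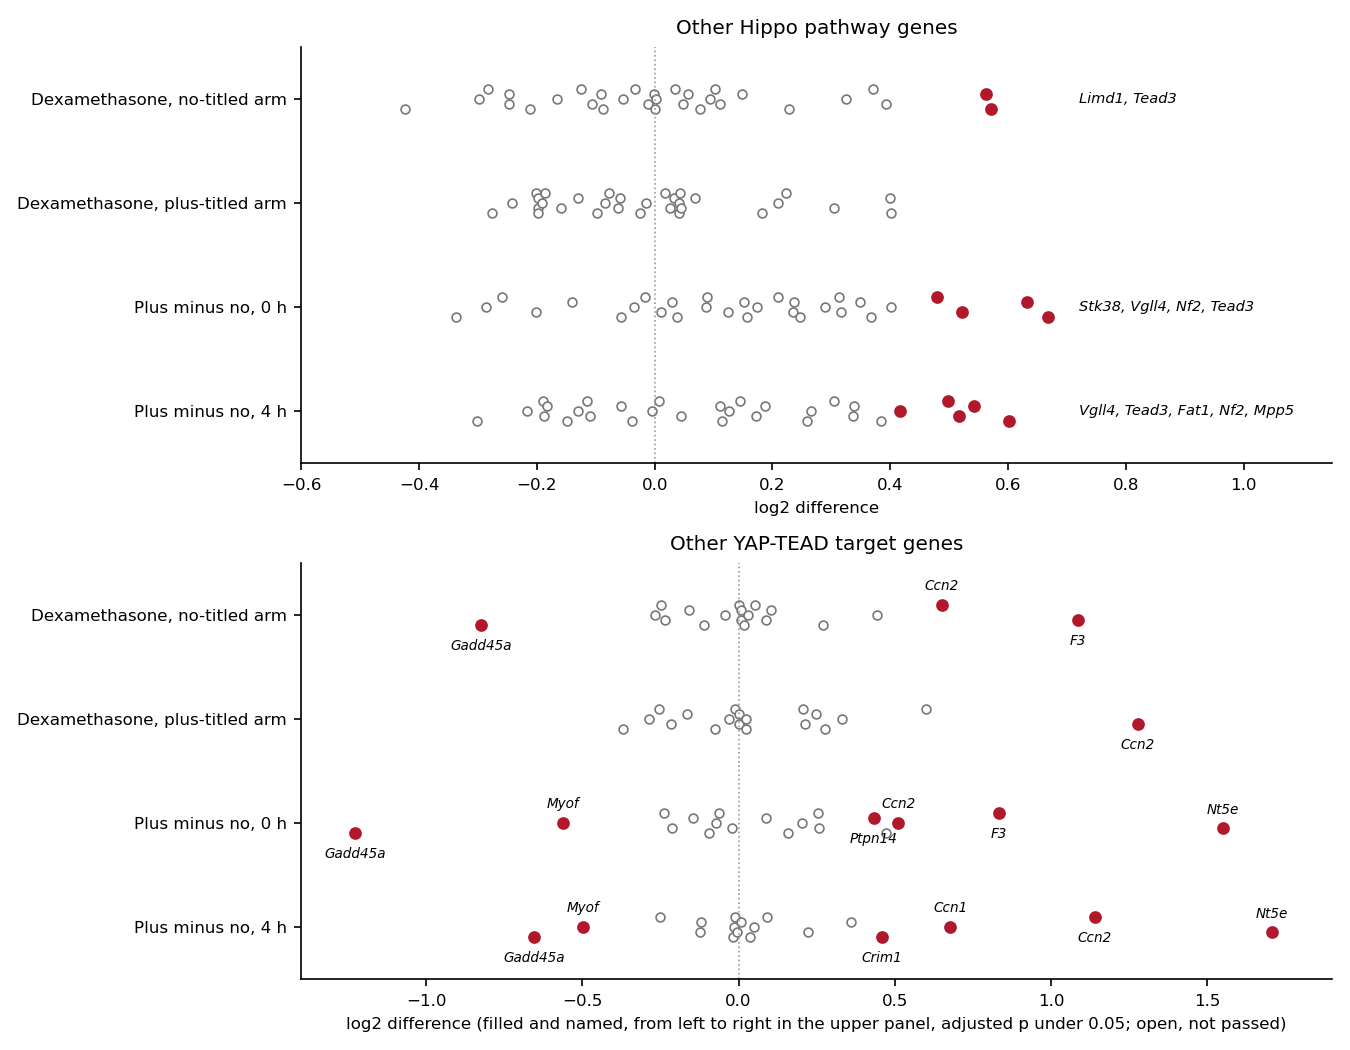
Log2 differences of 31 other Hippo pathway genes (upper panel) and 19 other YAP-TEAD target genes (lower panel) in 4 comparisons. Filled points passed at an adjusted p under 0.05 and are named, in the upper panel at the right in their order from left to right, and open points did not. The called Hippo genes all lie to the right of 0, while called targets lie on both sides, from Gadd45a at -1.23 to Nt5e at 1.71.

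The genes most alike to the 5 called members were found by the root-mean-square difference of values centred on each gene's own mean over 8 arrays. For Tead1 the nearest were Tango2 (0.03), Atg13 (0.07) and Nf2 (0.07), the last being a Hippo gene of the list above. Nearest to Lats2 were Tsc2 (0.04), Ap1b1 (0.05) and Uhmk1 (0.06), and to Wwtr1 they were Pde6d (0.05), Dgkd (0.06) and Yes1 (0.06). Tead4 was approached by Foxred2 (0.11), Slc39a14 (0.12) and Pdp1 (0.12). The nearest to Ankrd1 were Epha2 (0.29), Plaur (0.31) and Sh2d1b1 (0.33), at larger distances than for the other called members. This distance is not scaled, so it grows with the size and spread of a gene's changes. That these genes share the directions of Ankrd1 follows from how they were picked. Sh2d1b1 had low signal, with group means of 3.94 to 5.665.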

How the data were processed

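Total RNA of 8 samples was labelled with biotin and read on Affymetrix arrays. The deposited table holds log2 expression values that the authors made with Affymetrix Expression Console and RMA, per the submitters' processing notes, which name no version. RMA makes array distributions alike, so a shift shared by most genes cannot be seen. Cells were in stripped serum for 48 h before hormone, per the labels' protocols. These also give a tetracycline dose of 1 ug per ml and 48 h without tetracycline.

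Of 28888 probe sets, 21789 had 1 symbol, 1621 several and 5478 none. Of those with 1 symbol, 21698 were matched by gene number to a RefSeq table (GRCm38.p6) and took its symbol. The brightest probe set by mean stood for each of 19938 genes, with no filter on signal. Stk3 was not matched. limma 3.58.1 in R 4.3.3 was fitted over all 8 arrays with a mean per group, 2-sided, with Benjamini-Hochberg adjustment over all genes and 4 residual degrees of freedom plus a prior of 6.64. Adjusted p-values come from this fit unless another is named. No label calls the replicates separate cultures: the p-values reflect the spread between samples, which may be technical in origin, and the number of arrays limits the precision.

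The 10 genes and the lists were chosen with earlier results of these data known. Named were the 10 genes, up to 5 called genes of each list per comparison by size or, with 0 called, the 2 with the smallest p, Fkbp5 as a hormone check, and the 3 genes nearest in pattern to each called member. The comparisons share arrays, so their calls are not independent of each other. Alternatives were trend and robust variance, a fit to the compared arrays alone, a block by replicate number and removal of dim genes. Dim genes were those whose highest group mean lay under the median gene's level, and their removal left 10417 genes. Further alternatives were cyclic loess, median centring, the mean of a gene's probe sets, and each array left out in turn. In those last fits a lone array is assumed to vary like the others. The procedure was tested on simulated data. Of 67 genes changed 1.5-fold there, 28.4% to 43.3% were called in the comparisons within an arm or within a time. For the difference of the responses the share was 1.49%. At 2-fold these shares were 88.1% to 98.5% and 53.7%. Most changes of 1.5-fold were thus missed in these simulations.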

Additional observations from a re-analysis of the deposited data

Results flagged for a closer look

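F3, the tissue factor gene, differed between the arms in opposite directions before and after hormone, with no overlap at either time: 0.83 at 0 h (adjusted p = 0.00375) and -0.25 at 4 h (adjusted p = 0.302). Its difference of the hormone responses was -1.08 (plus-titled minus no-titled), which did not pass by limma over all genes (adjusted p = 0.208).

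Fat1, the cadherin gene, had a hormone response of -0.09 in the no-titled arm (limma adjusted p = 0.928). In the other arm it was 0.18 (adjusted p = 0.658), and neither response passed. In each arm the treated and untreated arrays did not overlap, which 2 arrays a group can give without any response. The difference of 0.27 did not pass (limma adjusted p = 0.997).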

How the results depend on the processing

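With 2 arrays a group, counts of calls moved more than the differences did. Over the settings other than leaving out an array, 440 of 460 member values kept their direction and side of the threshold. These values count each difference of the 10 members again under every setting. The variance, compared-array, block and dim-gene settings cannot change a difference, so there only its side of the threshold could move. Trend and robust variance called 461 genes in the no-titled response, 370 in the plus-titled response and 11 for the difference of the responses. Of the 10 members it called 5 in the arm difference at 0 h and 4 in the mean response, of the Hippo list 4 in the no-titled and 5 in the mean response, and of the targets 2 in the plus-titled response. Without dim genes the counts over all genes were 509, 415 and 10 in the same order, 2871 for the arms at 0 h and 955 for the mean response. Those of members were 5 at 0 h and 4 in the mean response, those of the Hippo list 5, 1 and 6 in the no-titled, plus-titled and mean responses and 13 in the mean arm difference, and that of targets 2 in the plus-titled response. With the compared arrays alone, 0 of the Hippo list passed in the no-titled and 0 members in the plus-titled response. Median centring left 1 of the Hippo list in the no-titled response and 2 genes for the difference of the responses, and cyclic loess called 2 targets in the plus-titled response. It turned Amotl1 to -0.029 at 0 h and -0.048 in the mean arm difference. Of all genes, the settings other than leaving out an array called 1341 to 2871 at 0 h, against 1870 in the main fit. They called 578 to 955 in the mean response (main fit 590) and 3595 to 4534 in the mean arm difference (main fit 3741). The cause of these moves was not tested.

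Same-numbered samples correlated at -0.019 to 0.134 in their deviations, with 2 numbers only, and share no more than a number in the labels. With the replicate block 2 members were called in the plus-titled response, Ankrd1 (-1.05, adjusted p = 0.0261) being added, and 5 in the arm difference at 0 h, Tead4 (0.42, adjusted p = 0.0402) and Amotl2 (0.45, adjusted p = 0.0377) being added. The mean arm difference of Amotl2 passed too (0.31, adjusted p = 0.0245).

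Leaving out each array gave these lowest and highest counts. Members: 1 to 2 and 0 to 1 in the no-titled and plus-titled responses, 0 to 3 at 4 h and 2 to 4 in the mean arm difference. All genes: 134 to 291, 80 to 187 and 0 to 2 in the responses and their difference, 589 to 1642 at 0 h, 654 to 2128 at 4 h and 331 to 527 in the mean response. Hippo list: 0 to 2 in the no-titled response, 2 to 4 at 0 h, 0 to 6 at 4 h, 1 to 3 in the mean response and 5 to 11 in the mean arm difference. Targets: 1 to 3, 1 to 2, 3 to 7, 2 to 6 and 2 to 4 in the no-titled and plus-titled responses, at 0 h, at 4 h and in the mean response.

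Only differences that had not passed changed sign in these fits. In the no-titled response Yap1 ranged from -0.048 to 0.078, Lats2 from -0.12 to 0.14 and Amotl2 from -0.18 to 0.083. In the plus-titled response Lats1 ranged from -0.32 to 0.037 and Amotl1 from -0.024 to 0.092, and the difference of the responses of Amotl1 from -0.20 to 0.024. At 0 h Lats1 ranged from -0.23 to 0.13, Amotl1 from -0.013 to 0.10 and Ajuba from -0.20 to 0.029. At 4 h Yap1 ranged from -0.12 to 0.085, Tead4 from -0.077 to 0.063, Amotl1 from -0.15 to 0.070 and Amotl2 from -0.054 to 0.39. The mean arm difference ran from -0.028 to 0.15 for Lats1 and from -0.054 to 0.058 for Amotl1.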
